A study of Mus musculus with 6 samples.

Results

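The chemokine genes Cxcl12, Ccl2, Ccl5, Ccl7, Ccl8, Cxcl1, Cxcl5, Cxcl10, Cxcl16 and Cx3cl1 were followed through a mouse heart co-culture experiment. The 10 genes were taken by name, as the chemokine ligands around Cxcl12, and all 10 were found among the 27179 gene identifiers of the bulk count table and among the 30716 gene identifiers of the single-cell tables. The study placed immature cardiomyocytes (imCMs), isolated from the hearts of newborn C57BL/6 mice (C57BL/6J in the study's methods), on a layer of cardiac fibroblasts taken either from newborn hearts (neonatal fibroblasts, NFs) or from grown hearts (adult fibroblasts, AFs), and asked how the age of the fibroblasts affects the cardiomyocytes. Bulk RNA-Seq covered 2 libraries of imCMs after culture with NFs (imCM-NF) and 2 after culture with AFs (imCM-AF). Single-cell RNA-Seq covered 1 chip labelled cardiomyocytes and 1 chip labelled fibroblasts, on the ICELL8 platform, which dispenses cells into wells and counts unique molecular identifiers (UMIs) per gene and well. All groups share the strain, and fibroblasts were grown through several passages before use. Cells carried CellTracker dyes and were sorted by dye after co-culture, and more AFs than NFs were plated per imCM.

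Each well has a name. Names starting with NFNCM or AFNCM, NF or AF, and NF0, AF0 or NCM0 carry a number at the end, and there were 16 names in all. The NFNCM, AFNCM and NCM0 wells were on the cardiomyocytes chip, and the NF, AF, NF0 and AF0 wells on the fibroblasts chip. The labels do not say what the numbers or the "0" stand for, or whether numbered names or bulk libraries came from separate cultures. Well values are therefore given by name with no test, and p-values in bulk measure only the spread between these libraries, which may be technical. Of 2462 wells that were not controls, 2247 were kept, 1296 on the cardiomyocytes chip and 951 on the fibroblasts chip, with 797 to 129448 UMIs each. The chips share 269 well barcodes, which were counted as separate wells. Bulk libraries held 9278909 to 12088577 counts. Cardiomyocyte markers were abundant in all 4 bulk libraries, with 12 of 12 detected and a summed level of 37442 to 51824 CPM (counts scaled to a common library total), but the 12 fibroblast markers were present as well, at 16151 and 17790 CPM in imCM-NF and at 11289 and 8953 CPM in imCM-AF.

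Chemokines are small secreted proteins that steer the movement of cells by binding G protein-coupled receptors on them, and they are grouped by the spacing of their first cysteines into CXC, CC and CX3C families. Cxcl12 is made by stromal cells and binds Cxcr4 and the scavenging receptor Ackr3, a pair needed for normal heart and vessel development. Many of the other ligands are induced in fibroblasts and endothelial cells by inflammatory signals that act through NF-kB or interferon, and they attract monocytes, neutrophils or lymphocytes. Cxcl16 and Cx3cl1 are unusual because they are made as membrane-anchored proteins and shed by proteases.

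Promoter sequences are shown for Cxcl10, which was called in bulk, Cxcl1, which was abundant and not called, and Cxcl12, the ligand the study discusses. RefSeq promoter sequences (GRCm38.p6, equivalent to mm10) were matched for 5 members, Cxcl12, Ccl8, Cxcl1, Cxcl10 and Cx3cl1. The 250 bases before the start are printed for 3 of them, on the gene's strand from 5′ to 3′, with capitals marking matches to an NF-kB type motif (GGG, any 3 bases, T, any 1 base, CC), an interferon response element type motif (TTTC, any 2 bases, TTTC) or TATAAA, on either strand. Cxcl10 lies on the minus strand (chr5:92348890-92349139), Cxcl1 on the plus strand (chr5:90890995-90891244) and Cxcl12 on the plus strand (chr6:117168285-117168534).
Cxcl10: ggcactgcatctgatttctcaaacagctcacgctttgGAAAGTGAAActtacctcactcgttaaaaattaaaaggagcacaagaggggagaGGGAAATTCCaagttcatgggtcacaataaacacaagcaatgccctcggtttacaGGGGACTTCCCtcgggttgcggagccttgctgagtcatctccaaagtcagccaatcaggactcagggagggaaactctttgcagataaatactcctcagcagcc
Cxcl1: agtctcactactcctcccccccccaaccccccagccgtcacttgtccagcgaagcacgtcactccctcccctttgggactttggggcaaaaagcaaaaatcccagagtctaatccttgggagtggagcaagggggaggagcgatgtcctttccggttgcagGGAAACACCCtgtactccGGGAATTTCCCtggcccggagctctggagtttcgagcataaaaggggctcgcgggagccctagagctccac
Cxcl12: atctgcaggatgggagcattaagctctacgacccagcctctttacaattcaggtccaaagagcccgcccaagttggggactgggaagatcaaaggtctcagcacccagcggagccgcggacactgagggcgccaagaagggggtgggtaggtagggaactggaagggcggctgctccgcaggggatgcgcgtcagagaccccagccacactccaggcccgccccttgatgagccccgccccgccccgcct
In Cxcl10, the interferon type motif lay 213 to 204 bases before the start and the NF-kB type motif lay at 159 to 150 and, as overlapping matches, at 104 to 94 bases. In Cxcl1, the NF-kB type motif lay at 89 to 80 bases and, matched on both strands, at 71 to 61 bases. The Cxcl12 window held none of these letters, which says nothing more about the gene. The NF-kB type motif was found in 14.9% of 32851 RefSeq promoters cut to the same length, the interferon type motif in 2.98% and TATAAA in 12.4%. Ccl8 held TATAAA 32 to 27 bases before its start and Cx3cl1 held it 6 to 1 bases before its start. The motifs were chosen after the sequences were seen, and a match is a description of the letters.

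In bulk RNA, 3 members were higher and 1 was lower in imCM-AF than in imCM-NF. Ccl5, Ccl8 and Cxcl10 rose and Cxcl16 fell, while Cxcl12, Ccl2, Ccl7, Cxcl1, Cxcl5 and Cx3cl1 did not pass both thresholds. Ccl8 passed the filter on low values (CPM over 1 in at least 2 libraries) only through imCM-AF. It was thus tested only because it was higher there, and its call adds no support to the count. The test was edgeR's quasi-likelihood test with Benjamini-Hochberg adjustment over 14041 genes, and calls required an adjusted p under 0.05 together with an absolute log2 fold change over 0.58. Across all tested genes 11.1% were called, 6.15% higher and 4.99% lower. The median log2 fold change was 0.14 over the 10 members and 0.0011 over all tested genes. The libraries of the groups did not overlap for any member, and they did not overlap for 66% of all tested genes. Fewer cells of a type and less RNA per cell cannot be told apart in these libraries.

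**Figure D1:**
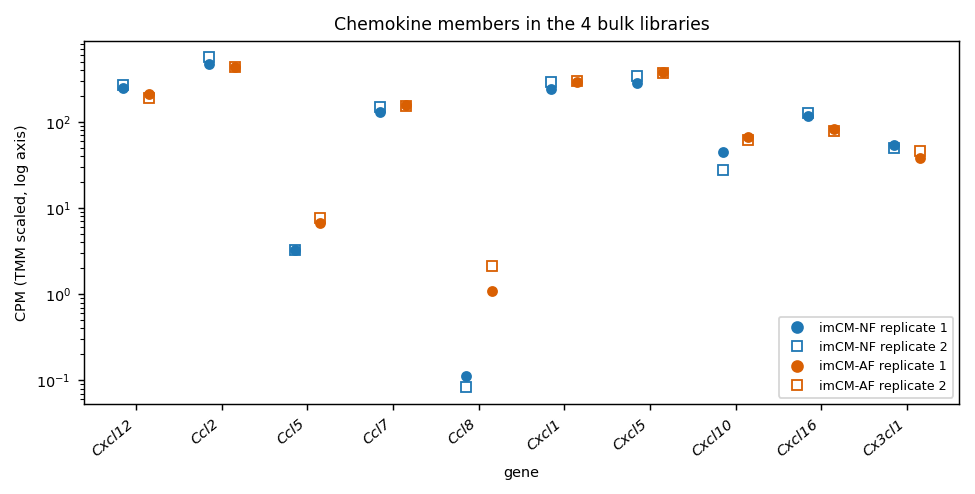
Level of each member in the bulk libraries in CPM on a log axis, with 1 point for each of the 2 imCM-NF libraries (blue) and the 2 imCM-AF libraries (orange). Ccl5, Ccl8 and Cxcl10 sit higher in both imCM-AF libraries, Cxcl16 sits lower, and the Cxcl12 points lie at 247 and 267 CPM against 212 and 190 CPM.

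Cxcl12, the ligand of Cxcr4 and Ackr3, was measured at 247 and 267 CPM in imCM-NF and at 212 and 190 CPM in imCM-AF. Both imCM-AF libraries were below both imCM-NF libraries, but the difference was small. On the log2 scale it was -0.35 ± 0.10 (SE, n = 2 and 2; edgeR adjusted p = 0.0182), which is under the fold threshold, and the adjusted p was 0.0944 when imCM-NF replicate 2 was left out, 0.289 when imCM-AF replicate 2 was, and 0.0773 with the replicate number as a block. Cxcl12 lies on chromosome 6, from 117168535 to 117181368 on the plus strand (mm10).

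Ccl5 and Cxcl10, which attract T cells and other leukocytes, were both higher with AFs. Ccl5 (chromosome 11) stood at 3.23 and 3.22 CPM in imCM-NF and at 6.75 and 7.65 CPM in imCM-AF, a low level in every library. This was a 2.23-fold rise, or 1.16 ± 0.23 on the log2 scale (edgeR adjusted p = 0.00134). Cxcl10, a chemokine known for its induction by interferon, stood at 44.9 and 27.9 CPM in imCM-NF and at 67.7 and 61.2 CPM in imCM-AF. The gap between the imCM-NF libraries was about as wide as the gap between the groups. The rise was 1.79-fold, or 0.84 ± 0.15 on the log2 scale (edgeR adjusted p = 0.000593). With imCM-NF replicate 2 left out it was 0.53, under the fold threshold.

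Ccl8, a monocyte-attracting CC chemokine that sits beside Ccl2 and Ccl7 on chromosome 11, was close to absent with NFs. It had 1 and 1 counts in the imCM-NF libraries and 12 and 25 counts in the imCM-AF libraries. It passed the filter on low values only through imCM-AF, so it could be tested only because it was higher there. The ratio of summed counts, scaled to library size, was 17.1, with a 95% counting interval of 4.4 to 146. The edgeR adjusted p was 0.000592, and the fitted log2 fold change of 3.94 ± 0.70 depends on the prior count.

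Cxcl16, the membrane-anchored ligand of Cxcr6, was the member that fell. It stood at 116 and 128 CPM in imCM-NF and at 83.2 and 79.0 CPM in imCM-AF, so the groups were well apart. It was 1.51-fold lower (log2 fold change -0.59 ± 0.10, edgeR adjusted p = 0.000268). The value lies just past the fold threshold, and it was -0.51 when imCM-NF replicate 2 was left out, -0.55 when imCM-AF replicate 2 was, and -0.55 with scaling by library size alone. Cx3cl1, the other membrane-anchored member, stood at 53.8 and 49.98 CPM in imCM-NF and at 38.6 and 46.5 CPM in imCM-AF (log2 fold change -0.28 ± 0.11, edgeR adjusted p = 0.0589).

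The monocyte attractants Ccl2 and Ccl7 and the neutrophil attractants Cxcl1 and Cxcl5 were the most abundant members per length and did not pass the test. Ccl2 stood at 470 and 564 CPM in imCM-NF and at 429 and 432 CPM in imCM-AF (log2 fold change -0.26 ± 0.12, edgeR adjusted p = 0.112). Cxcl5 stood at 286 and 344 CPM in imCM-NF and at 378 and 367 CPM in imCM-AF (0.24 ± 0.11, edgeR adjusted p = 0.127). The groups did not overlap for either gene, but the gap between them was narrower than the spread within imCM-NF. Ccl7 ranged from 130 to 155 CPM and Cxcl1 from 243 to 301 CPM over the 4 libraries, with log2 fold changes of 0.13 ± 0.10 and 0.15 ± 0.11 (edgeR adjusted p = 0.376 and 0.335).

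Levels of different genes can be set side by side only per length of transcript. As mean RPKM (CPM per kilobase of transcript) over the 4 libraries, Ccl2 led at 416, followed by Cxcl5 at 184, Ccl7 at 183 and Cxcl1 at 150. Cxcl16 at 33.6, Cxcl12 at 28.0, Cxcl10 at 22.4 and Cx3cl1 at 12.0 formed a middle group, and Ccl5 at 5.43 and Ccl8 at 1.66 were lowest. The Cxcl12 gene model is 8176 bases long and that of Ccl7 801 bases, so Cxcl12 ranks lower per length than by CPM.

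Among the receptors, 6 of 23 genes passed the filter on low values, and 1 of these, Cxcr4, was lower in imCM-AF. Across all tested genes 4.99% were called lower. Cxcr4, the signalling receptor of Cxcl12, stood at 9.14 and 10.2 CPM in imCM-NF and at 3.56 and 3.95 CPM in imCM-AF (log2 fold change -1.36 ± 0.21, edgeR adjusted p = 0.000155). Its fold was the largest of the receptors tested here, and it passed both thresholds without any of the 4 libraries in turn. Ackr3, the scavenging receptor of Cxcl12, lay between 18.0 and 20.7 CPM in all 4 libraries (-0.10 ± 0.13, edgeR adjusted p = 0.600). Ackr1, an atypical receptor that binds many inflammatory chemokines, stood at 8.14 and 7.60 CPM in imCM-NF and at 10.8 and 11.3 CPM in imCM-AF, a difference of 0.50 ± 0.17 on the log2 scale, under the fold threshold (edgeR adjusted p = 0.0421). Ackr4 (0.69), Cxcr5 (-0.19) and Ccrl2 (-0.01) did not pass, and the sign of Cxcr5 and Ccrl2 changed under some alternatives.

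Among the other chemokine ligands, 11 of 26 were tested, 5 were higher and 0 lower in imCM-AF, with a median log2 fold change of 0.54. Across all tested genes 6.15% were called higher. The 5 were Cxcl14 (2.16), Ccl20 (1.24), Ccl3 (1.09), Cxcl2 (0.79) and Cxcl3 (0.63), given as log2 fold changes. All were scarce, since Cxcl2, the most abundant, stood at 11.8 and 12.2 CPM in imCM-NF and at 20.8 and 20.8 CPM in imCM-AF, and Cxcl14 had 2 and 4 counts in imCM-NF and 14 and 16 in imCM-AF. Like Ccl8, Cxcl14 passed the filter on low values only through imCM-AF, and its fitted fold change depends on the prior count. Of the remainder, Ccl4 (0.54), Ccl25 (0.22), Ccl6 (0.07), Ccl27a (-0.05), Ccl9 (-0.10) and Pf4 (-0.57) were not called, and the sign of Ccl6, Ccl9 and Ccl27a changed under some alternatives. Ccl27a has near-identical copies in the mouse genome, so its counts are uncertain.

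**Figure D2:**
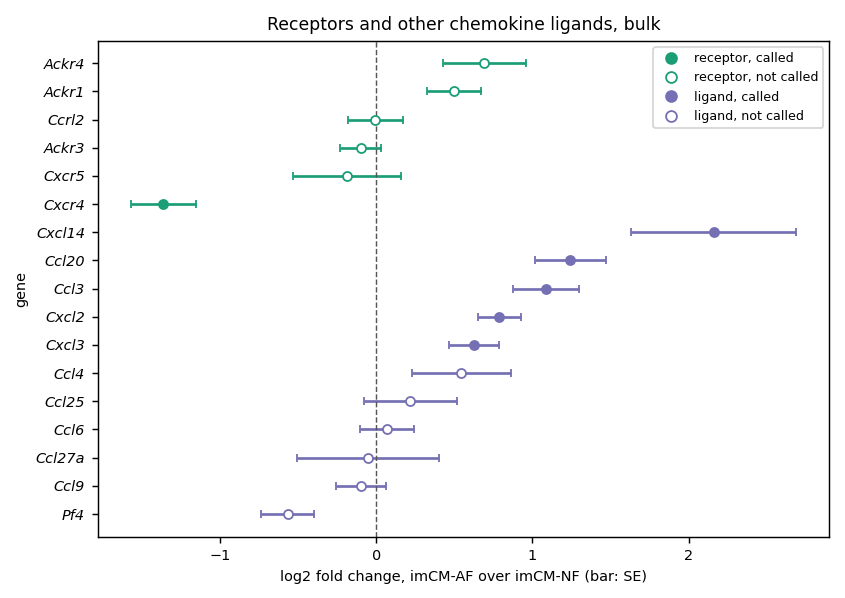
Log2 fold change of imCM-AF over imCM-NF in bulk for the 6 receptors (green) and 11 other ligands (purple) that were tested, with bars for the standard error and filled points for called genes. Cxcr4 lies alone at -1.36 among the receptors, and the 5 called ligands lie between 0.63 and 2.16.

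The genes that act with chemokines were read from the same fit, in which 11.1% of all tested genes were called. Of 36 genes for receptor signalling, 1 was higher, Grk3 (log2 fold change 0.97), a kinase that desensitises receptors, and 1 was lower, Arrb2 (-0.59), a beta-arrestin. This share lies below that of all tested genes. Of the 36 genes, 26 had a log2 fold change below 0, and the median was -0.19. Of 13 proteases and matrix partners, 11 were tested and 3 were lower, namely the matrix metalloproteinases Mmp14 (-0.92) and Mmp2 (-0.62) and the heparan sulfate carrier Sdc1 (-0.84). Mmp2 stood at 351 and 386 CPM in imCM-NF and at 267 and 213 CPM in imCM-AF.

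Of 25 NF-kB response genes, 23 were tested, 6 were higher and 1, Nfkb2 (-0.67), was lower. The higher genes included the cytokine Il6 (1.07), the prostaglandin enzyme Ptgs2 (1.05), the complement gene C3 (0.82), Lcn2 (0.73) and the NF-kB inhibitor Tnfaip3 (0.73), and the median over the list was 0.12. Of 25 interferon response genes, 21 were higher and 0 lower, with a median log2 fold change of 1.10. The largest were Oas1a (2.79), Ifi44 (2.24), Ifit1 (1.99), Rsad2 (1.83) and Irf7 (1.81). Their summed level was 2168 and 1580 CPM in imCM-NF and of 4096 and 4341 CPM in imCM-AF, with imCM-NF replicate 1 above replicate 2 as for Cxcl10.

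Markers of other cell types moved between the groups too. Of 12 fibroblast markers 7 were lower and 0 higher in imCM-AF, with a median of -0.71, and of 10 endothelial markers 4 were lower, with summed levels of 1504 and 1606 CPM in imCM-NF and of 1170 and 1057 CPM in imCM-AF. Macrophage markers were scarce, with 10 of 10 tested, 2 lower, and summed levels of 68.0 to 93.5 CPM. The T cell markers were near 0, with 2 of 8 passing the filter. Of 12 cardiomyocyte markers 2 were higher and 1 lower. The part of these cells in the member results was not tested.

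In the wells, Ccl2, Ccl7, Cxcl1 and Cxcl5 reached the highest levels of the members, each of them in wells named AF. Cxcl12 was detected under every name, and its level was higher under each adult name than under the matching neonatal one. The values below are UMIs summed over the kept wells of a name and scaled to CPM, with mitochondrial genes and spike-ins left out of the total. Their 95% exact Poisson intervals cover counting error only. Numbered names are not replicates of a condition that the labels give, so their range is shown as a description.

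**Figure D3:**
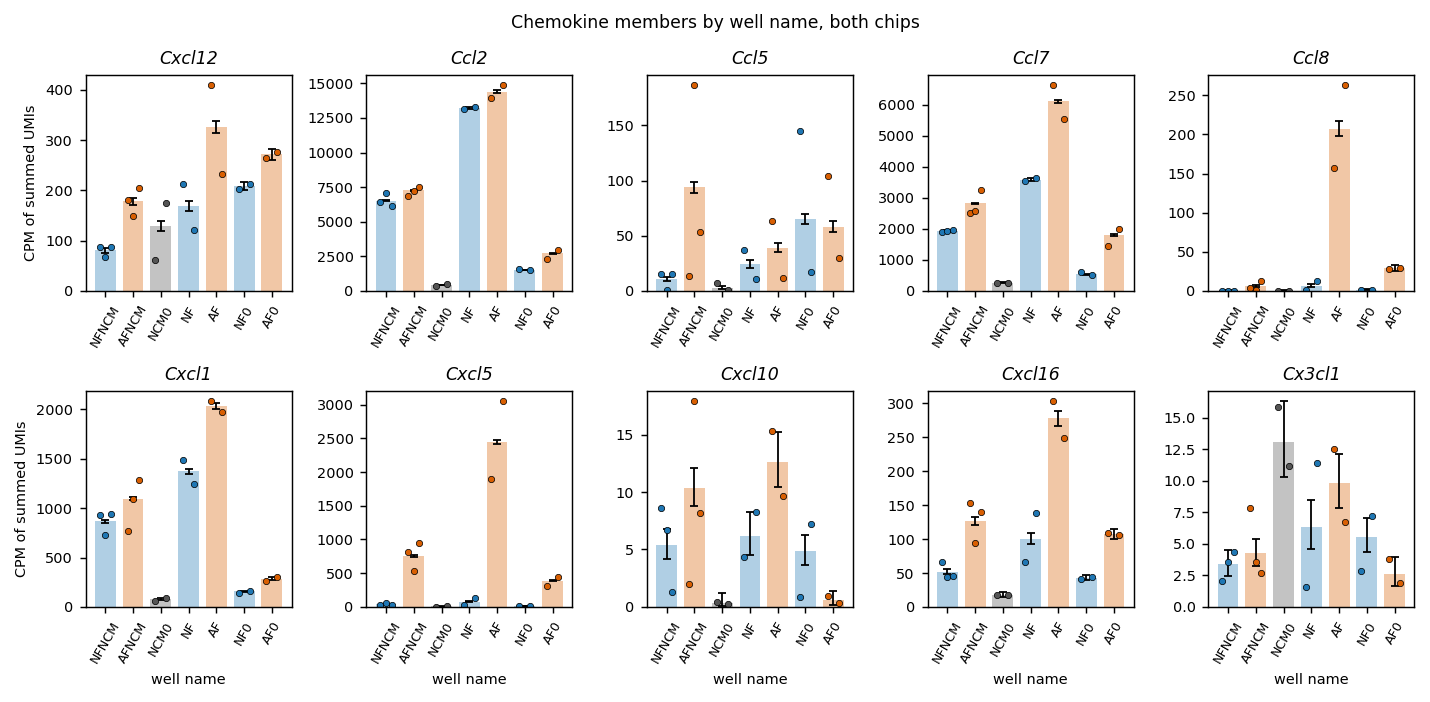
Level of each member by well name in CPM, with bars for the sum over a name, error bars for the 95% counting interval and dots for the numbered names within it. Blue stands for names starting with NF, orange for AF and grey for NCM0, and Cxcl5 is above 390 CPM under AF, AF0 and AFNCM and below 80 under NF, NF0 and NFNCM.

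Cxcl12 stood at 327 CPM in AF, 272 in AF0, 209 in NF0, 179 in AFNCM, 169 in NF, 129 in NCM0 and 80.6 in NFNCM. The numbered names spread widely within AF (233 and 410), NF (121 and 213) and NCM0 (60.9 and 175), so neighbours in this order are not clearly apart. Between matched names they did not overlap, since AFNCM ranged from 150 to 205 and NFNCM from 67.3 to 88.1. The ratio was 2.21 for AFNCM over NFNCM (2.06 to 2.38), 1.94 for AF over NF (1.81 to 2.07) and 1.30 for AF0 over NF0 (1.23 to 1.38). The bulk difference in imCMs was -0.35 on the log2 scale, opposite in direction to AFNCM over NFNCM on the cardiomyocytes chip. The AF over NF and AF0 over NF0 ratios came from the fibroblasts chip, so bulk imCMs are not their counterpart. The difference between the assays was not tested. At least 1 Cxcl12 UMI was counted in 1168 of 2247 wells.

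Cxcl5, a neutrophil attractant, separated adult from neonatal names more than any other member counted in more than 100 UMIs under each of them. It stood at 2444 CPM in AF and 79.1 in NF, at 760 in AFNCM and 36.4 in NFNCM, and at 391 in AF0 and 12.8 in NF0. No numbered adult name came near a neonatal one, as the lowest in AFNCM was 530 and the highest in NFNCM 51.9. The ratios were 30.9 (28.4 to 33.6), 20.9 (19.0 to 22.9) and 30.5 (26.0 to 36.1). In bulk imCMs the same gene differed by a log2 fold change of 0.24.

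Ccl2 was the most abundant member under every name. It stood at 14410 in AF and 13220 in NF, 7258 in AFNCM and 6526 in NFNCM, 2721 in AF0 and 1510 in NF0, and 427 in NCM0, in CPM. The ratios were 1.09, 1.11 and 1.802 in that order, and AFNCM and NFNCM overlapped in their numbered names. Names with a "0" had much less Ccl2 than the same fibroblast names without it, and the same held for Ccl7 and Cxcl1. Ccl7 stood at 6118 in AF, 3585 in NF, 1787 in AF0 and 533 in NF0, and Cxcl1 at 2032, 1374, 287 and 157.

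Cxcl16 was higher under all 3 adult names. It stood at 278 in AF against 101 in NF, 126 in AFNCM against 51.7 in NFNCM and 108 in AF0 against 43.1 in NF0, and the numbered names did not overlap. The ratios were 2.76 (2.54 to 3.01), 2.44 (2.23 to 2.67) and 2.49 (2.24 to 2.78). Bulk imCMs showed a fall, opposite to AFNCM over NFNCM, while the other pairs came from the fibroblasts chip. The difference between the assays was not tested here either.

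**Figure D4:**
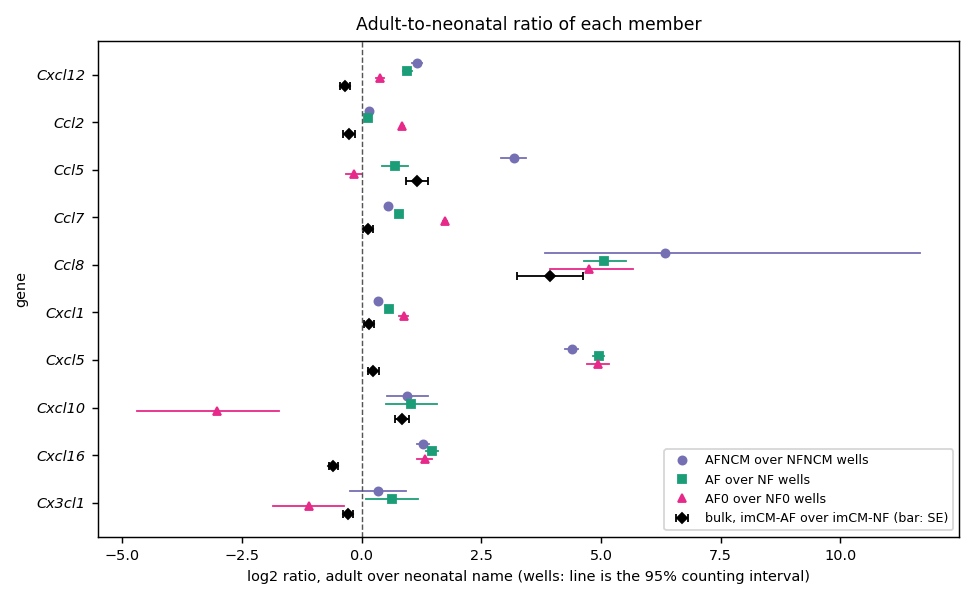
Ratio of adult to neonatal levels for each member on a log2 axis, for bulk imCMs with the standard error and for the 3 pairs of well names with the 95% counting interval. Cxcl12 and Cxcl16 lie below 0 in bulk and above 0 in all 3 pairs of names, while Cxcl5 lies near 0 in bulk and above 4 in the wells.

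The scarce members rested on few wells. Ccl5 had 3358 UMIs, of which 71.0% were in its top 10 wells, and 1 well held 813 UMIs, or 57.4% of all Ccl5 in AFNCM. Its ratio for AFNCM over NFNCM was 9.01, but the numbered names overlapped, from 13.7 to 187 in AFNCM and from 0.891 to 15.6 in NFNCM. Ccl8 had 2209 UMIs with 73.3% in the top 10 wells. It stood at 207 CPM in AF and 6.19 in NF, at 28.6 in AF0 and 1.07 in NF0, and at 6.23 in AFNCM, where NFNCM held 1 UMI and NCM0 held 0. The Ccl8 ratios were 33.5 (24.8 to 46.2) for AF over NF and 26.8 (15.4 to 51.0) for AF0 over NF0, with adult numbered names above neonatal ones. Thinned to 5000 UMIs per well they were 71.3 and 51.1, beyond the counting intervals. For AFNCM over NFNCM it was 81.4, with a counting interval of 14.3 to 3248 because of the 1 UMI, and it was 22.5 after thinning.

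Cxcl10 and Cx3cl1 were close to the limit of detection in the wells. Cxcl10 had 447 UMIs in all, at 12.7 CPM in AF, 10.3 in AFNCM, 6.19 in NF and 5.36 in NFNCM. Its ratio was 1.93 (1.45 to 2.596) for AFNCM over NFNCM with overlapping numbered names, and 0.123 (0.0385 to 0.303) for AF0 over NF0, which rests on 5 and 59 UMIs. Cx3cl1 had 405 UMIs in all and was highest in NCM0 at 13.1 CPM. There 8 of 258 wells held it, and 36 of the 76 UMIs were in 1 well, so this rank is uncertain. Its numbered names overlapped for all 3 pairs.

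Control wells give the background. The 5 negative control wells on the fibroblasts chip held 3587 UMIs, of which 33 were Ccl2, 7 Ccl7, 6 Cxcl5, 4 Cxcl1 and 0 Cxcl12. A single well held 2374 of these UMIs, and 31 of the 33 Ccl2 UMIs, all 7 of Ccl7 and all 6 of Cxcl5 were each in 1 well. The 5 on the cardiomyocytes chip held 1465 UMIs, of which 1 was Ccl2. The background thus rests largely on 1 well, and the part of such free UMIs in low levels of Ccl2, Ccl7, Cxcl1 and Cxcl5 was not tested.

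Wells were then grouped by their other genes. Clustering with all 38 chemokine ligand genes left out gave 11 clusters, of which 1, 6 and 10 were cardiomyocyte-like, 3 fibroblast-like, 9 endothelial-like and 11 macrophage-like by their markers. The fibroblast-like cluster was led by acute phase and interferon genes (Hp, Saa3, Oas2) and held 153 AF and 92 AFNCM wells. Clusters 2, 4, 5, 7 and 8 stayed unnamed, although fibroblast markers summed to 4095, 3394 and 3804 CPM in clusters 2, 5 and 7, against 9169 CPM in cluster 3. Cluster 5 held only AF0 wells and was led by Lrrn4, Upk3b and Upk1b among others. Clusters 4 and 7 were shallow, with median UMIs at 0.28 and 0.244 of their chip's median. Names were rebuilt here and need not equal those of the study.

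**Figure D5:**
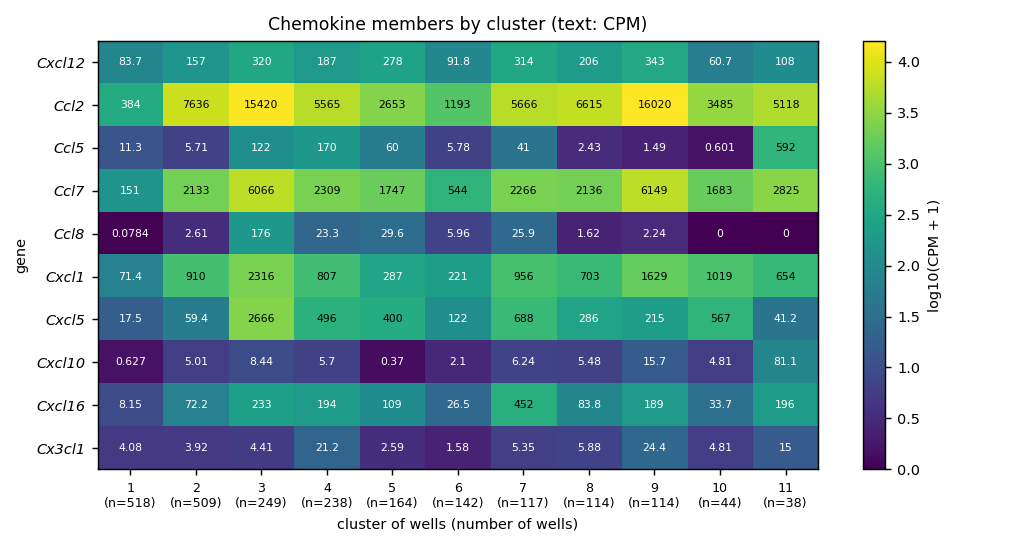
Level of each member in the 11 clusters in CPM printed in each cell and coloured by log10(CPM + 1), with the cluster number and its count of wells on the axis. Cxcl5 reaches 2666 in cluster 3, Cxcl12 reaches 343 in the endothelial-like cluster 9, and Ccl5 reaches 592.5 in the macrophage-like cluster 11.

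Summed over all names, Cxcl12 stood at 343 CPM (325 to 362) in the endothelial-like cluster, 320.5 (309.6 to 332) in the fibroblast-like cluster and 314 in the shallow cluster 7, where it was 191 without 1 well. The order of the endothelial-like and fibroblast-like clusters depended on the name, at 479 and 235 CPM in AFNCM and at 100.0 and 356 CPM in AF. The endothelial-like AF value rests on 14 wells and 66 UMIs, and 25 endothelial-like NF wells stood at 343 CPM. Nearly all fibroblast-like wells carried adult names, while cluster 2, with 178 NF and 225 NF0 wells, stayed unnamed. Cxcl12 was lower in the cardiomyocyte-like clusters, at 83.7 in cluster 1, 91.8 in cluster 6 and 60.7 in cluster 10. Cxcl5 stood at 2666 in the fibroblast-like cluster, 215 in the endothelial-like cluster and 59.4 in cluster 2, which held most NF and NF0 wells. In the cardiomyocyte-like clusters 1, 6 and 10 it stood at 17.5, 122 and 567, and the last value was 110 without 1 well. Cx3cl1, a ligand known from endothelium, stood at 24.4 (19.8 to 29.7) in the endothelial-like cluster, but 1 AF well held 48 of its 98 UMIs there, and without it the level was 12.7. The 592.5 CPM of Ccl5 in the macrophage-like cluster came from 6 of 38 wells and was 185 without 1 of them. Ccl2 and Ccl7 were highest in the endothelial-like cluster (16020 and 6149 CPM) and the fibroblast-like cluster (15420 and 6066 CPM), with no clear order between these clusters, since leaving out 1 well from each turned it. Cxcl10 was highest in the macrophage-like cluster at 81.1 CPM. Ccl8 was highest in the fibroblast-like cluster at 176 CPM, with 41 of its 249 wells holding a Ccl8 UMI, and was 123 without 1 well. Of the 1795 Ccl8 UMIs in that cluster, 1786 were in AF wells, at 247 CPM. Its AFNCM wells stood at 3.13 CPM, from 9 UMIs. Cluster 5, which held AF0 wells alone, had Ccl8 UMIs in 52 of 164 wells and Cxcl12 UMIs in 151 of them.

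Within cardiomyocyte-like wells, UMIs of the members were still counted under both co-culture names, but some were very few. In NFNCM, Ccl8 had 1 UMI, Cxcl10 had 11 and Cxcl5 had 18. These wells made up 313 of 523 in NFNCM, 189 of 515 in AFNCM and 184 of 258 in NCM0, and cluster 1 held most of them in NFNCM (290) while cluster 6 held most in AFNCM (134). Cxcl12 stood at 56.9 CPM in NFNCM, 92.7 in AFNCM and 117 in NCM0. The numbered names ranged from 54.6 to 60.1 in NFNCM and from 83.1 to 105.5 in AFNCM without overlap, and NCM0 spread across both, at 61.3 and 156. Cxcl5 stood at 2.23, 251 and 4.16 and Ccl2 at 646, 1553 and 177, in the same order. Of the 1792 Cxcl5 UMIs in these AFNCM wells, 768 were in 1 well. In fibroblast-like AFNCM wells Cxcl5 stood at 2524 and Ccl2 at 19550, and the fibroblast markers summed to 232 CPM in cluster 1, 469 in cluster 6 and 9169 in cluster 3. The part of fibroblast RNA in cardiomyocyte-like wells was not tested.

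Fibroblast markers summed to 2604 CPM in AFNCM and 1044 in NFNCM, and to 8831 in AF and 2915 in NF, so for these pairs they moved with the higher Cxcl12, Cxcl5 and Cxcl16 of the adult names. For AF0 and NF0 they went the other way, at 3367 and 4232. Endothelial markers summed to 375 in AFNCM and 118 in NFNCM, 412 in AF and 318 in NF, and 580.5 in AF0 and 172.5 in NF0, and endothelial-like wells numbered 54 in AFNCM and 12 in NFNCM. Interferon response genes were higher under all 3 adult names as well, at 2492 against 639, 4358 against 1074 and 2345 against 1168 CPM. In the same order of pairs, cardiomyocyte markers were lower under the adult names, at 39500 against 44980, 670 against 3777 and 266 against 5321. Macrophage markers were lower too, at 535 against 748, 70.3 against 281 and 108 against 751. Epicardial or mesothelial markers did not share a direction, at 64.6 against 22.7, 18.5 against 54.8 and 347 against 36.8. Median UMIs per well were 19709 and 18770 in AFNCM and NFNCM, and 28923 and 17156 in AF and NF. They were 38627 and 32976 in AF0 and NF0. The part of cell makeup and depth in these ratios was not tested.

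The receptors were hardly counted in the wells. Cxcr4 had 30 UMIs in AFNCM, 17 in NCM0, 12 in NF0, 2 in NFNCM, 2 in AF0 and 1 each in AF and NF. Its ratio of 13.0 for AFNCM over NFNCM has an interval of 3.30 to 112 and is opposite to the bulk fall. Ackr3 was found at 11.2 CPM in AF0 and 5.92 in AF, and Ackr1 had 67 UMIs in AF and 73 in AFNCM against 1 in NF and 4 in NFNCM. The other ligands did not share a direction. Ccl6, a CC chemokine, had 5431 UMIs in AFNCM and 61 in NFNCM, but its ratio for AF0 over NF0 was 0.967. Cxcl14 had 115 UMIs in AF0 and 5 in NF0. Ccl17 went the other way, with ratios of 0.410 for AFNCM over NFNCM, 0.436 for AF over NF and 0.546 for AF0 over NF0. Its numbered names overlapped between AF and NF.

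Genes with the most similar pattern over the 16 names were ranked by Pearson's r of log2(CPM + 1) among 10504 genes, as a description, since the names share chips and depth. For Cxcl12 these included Nr2f2 (0.92), Srgap3, Slc20a1 and Slc52a2. Ccl2, Ccl7 and Cxcl1 were nearest to one another, with r of 0.98 for Ccl2 with Cxcl1 and 0.97 for Ccl2 with Ccl7, followed by Nfkbiz for Ccl2, Serpina3f for Ccl7 and Nfkbia for Cxcl1. Cxcl5 was nearest to Mmp3 (0.97), Oas1g and Cp, and Cxcl16 to Cp (0.98), Runx1 and Dcn. Ccl8 was nearest to Map4k4, Fgf7 and Gm12840, Ccl5 to Sat1, Gm9833 and Bccip, Cxcl10 to Prelid2, Gm16373 and Rpl22l1, and Cx3cl1 to Ppm1d, Acan and Clasrp, each over few UMIs.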

How the data were processed

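Bulk RNA-Seq counts per gene, deposited by the authors as raw counts, and UMI counts per gene and well with per-well read counts, also deposited by the authors, were the only values used. The submitters' processing notes name Subread (1.4.6-p1), featureCounts, STAR (2.5.2b) and the mm10 build.

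The members and all gene lists were chosen with earlier results of these data known. Bulk genes with CPM over 1 in at least 2 libraries were tested with edgeR 4.0.16 (R 4.3.3; TMM scaling, quasi-likelihood test, Benjamini-Hochberg adjustment), and limma 3.58.1 and DESeq2 1.42.0 were alternatives. The script was tested on simulated data. Bulk groups came from the labels. Libraries of a group differed beyond sampling noise (chi-square per degree of freedom 7.11 and 6.89). The numbers 1 and 2 did not pair the libraries (r = -0.153 over 14041 genes). Genes without a symbol took 3.13% to 3.90% of bulk counts.

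A well was kept if it had 500 genes or more, an aligned share of its read pairs above 50% and no more than 2 SD between its UMI total and the average well. Mitochondrial genes and spike-ins were left out of these genes and UMIs. The names NFNCM, AFNCM, NF and AF cover 1648 wells, 1513 kept. The study had selected single live cells by imaging and had collected only cells with a single dye. In the processing here, doublets were limited only by the upper UMI limit, and no doublet caller was run. Wells were clustered with scanpy 1.11.5 (Python 3.11.15). Levels carry 95% exact Poisson intervals, for counting error only.

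Named genes were all members, the receptors and other ligands that passed the bulk filter, at most 5 called genes with the largest change in each other list, and the 3 genes (5 for Cxcl12) most alike over the well names, of which 1 is not reported here. Nfkb2, Ccl17 and the genes that lead a cluster were named after their values were seen.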

Additional observations from a re-analysis of the deposited data

Results flagged for a closer look

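In 3 members both imCM-AF libraries stood below both imCM-NF libraries in bulk while adult names stood above matching neonatal names in the wells. This held for all 3 pairs of names in Cxcl12 and Cxcl16 but not in Ccl2. Of the pairs, only AFNCM over NFNCM came from the cardiomyocytes chip. For Cxcl12 the log2 ratio in the wells was 1.15 for AFNCM over NFNCM, 0.95 for AF over NF and 0.38 for AF0 over NF0, beside -0.35 in bulk. For Cxcl16 it was 1.29, 1.47 and 1.32 for the same pairs, beside -0.59 in bulk. For Ccl2 it was 0.12 for AF over NF and 0.85 for AF0 over NF0, beside -0.26 in bulk, which did not pass the test. For AFNCM over NFNCM the Ccl2 log2 ratio was 0.15, and the numbered names overlapped. Summed fibroblast and endothelial markers were likewise lower in imCM-AF in bulk but higher in AFNCM than in NFNCM. Macrophage markers were lower in both. The difference between the assays, and the part of cell makeup in it, was not tested, since numbered well names are not samples that the labels place in a group.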

How the results depend on the processing

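Members called in bulk numbered 4, and 3 to 5 under the other scalings, filters and tests, except 2 at a log2 threshold of 1 and 2 to 4 when each library was left out. All called genes numbered 1564, against 3789 with the adjusted p alone, 565 at a log2 threshold of 1, 1078 with DESeq2 and 879 to 1929 when each library was left out. The lowest counts came when replicate 2 of imCM-NF (879) or replicate 2 of imCM-AF (988) was left out. With a replicate block there were 1430 calls, and 1668 with the crossed pairing, which was chosen after seeing the data, as the replicate differences correlated at r = -0.153. The members called were 4 in both. Of 138 member fold changes under 14 alternatives, 0 were reversed, 6 lost the call, 1 gained it and 131 kept sign and call. The adjusted p alone and the log2 threshold of 1 reuse the main fold changes, which could not reverse there. Ccl8 gave no value when either imCM-AF library was left out, since it then failed the filter.

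Log2 fold changes near 0 turned sign for 5 genes that are no members. Ccrl2 was 0.0021 with RLE scaling, 0.0368 with library size, 0.0045 with limma-voom and -0.18 to 0.16 when each library was left out. Ccl27a was 0.0184 with DESeq2, 0.11 with limma-voom, 0.046 with the crossed block and -0.57 to 1.11 when each library was left out. The ranges over left-out libraries were -0.35 to 0.0599 for Cxcr5, -0.22 to 0.0337 for Ccl9 and -0.0165 to 0.17 for Ccl6. The cause was not tested.

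The Cxcl12 log2 ratio of wells stayed above 0 under every alternative tried. For AFNCM over NFNCM it was 1.03 with a minimum of 500 genes alone and 0.91 at 5000 UMIs per well. For AF over NF it was 1.21 with a minimum of 500 genes alone, 1.22 with UMI limits within each chip, 0.65 as a mean over wells and 0.72 at 5000 UMIs. For AF0 over NF0 it was 0.29 as a mean over wells and 0.57 without the well with most Cxcl12 UMIs. The cause was not tested. At 5000 UMIs per well the ratios were 22.5, 71.3 and 51.1 for Ccl8 and 17.0, 3.62 and 0.612 for Ccl5, in the same order of pairs, and for AF0 over NF0 Cx3cl1 was 0.310 and Cxcl10 had no UMI in AF0. The Ccl5 ratio of AF0 over NF0, 0.894, was 3.70 without the well with most Ccl5 UMIs. Leaving out 1 well of a cluster, an alternative chosen after seeing the data, lowered Cx3cl1 in the endothelial-like cluster from 24.4 to 12.7 CPM.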
